A study of Sus scrofa with 2 samples.

Results

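Cycling neuronal precursors are the dividing cells of the olfactory lining that feed its supply of sensory neurons. They were picked out from single-nucleus RNA sequencing of the olfactory mucosa of newborn pigs (Sus scrofa), in 1 library from a CFTR knockout piglet and 1 library from a wild type (WT) piglet. A nucleus was taken as a precursor when it had 1000 or more UMIs (unique molecular identifiers, each marking 1 captured transcript), UMIs of at least 3 cell cycle genes, of at least 1 of the 4 neuronal genes NEUROD1, HES6, THSD7B and CERKL, and of fewer than 5 of 7 genes of motile cilia. The cycle genes were TOP2A, DIAPH3, CENPF, ASPM, KIF11, KIF15, NDC80, BUB1, EZH2 and MYBL1; an 11th, MKI67, was not matched to a row of the tables. The rule found 63 precursors in the CFTR knockout library and 120 in the WT library, 183 of 10769 nuclei in all. CFTR encodes the chloride and bicarbonate channel that is lost in cystic fibrosis, and the study asked how its loss bears on olfactory progenitors that divide. Both libraries came from tissue that was frozen, cut in a cryostat and ground to free the nuclei. Each library stands for 1 animal and the labels give neither sex nor litter, so no difference was tested and intervals below are 95% intervals for counting error only.

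In the olfactory epithelium, horizontal basal cells that carry TP63 act as a reserve, while globose basal cells divide and give rise to sensory neurons throughout life. In the mouse, globose basal cells pass through a stage with KIT and then one with NEUROG1 and NEUROD1 before the daughters leave the cycle and grow an axon. The transcription factors EBF, LHX2 and the phosphatase and coactivator EYA2 accompany that passage. A mature olfactory neuron carries many cilia, and its centrioles are made ahead of time, with the help of proteins such as CEP152, STIL and SASS6.

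In the CFTR knockout library 4705 of 6054 nuclei reached 1000 UMIs, at a median of 2138 UMIs over all its nuclei. In the WT library 4329 of 4715 did, at a median of 3032 UMIs. Precursors were deep nuclei, with a median of 5268 UMIs in the knockout library and 5977.5 in the WT library, and 18 knockout and 45 WT precursors had over 8000 UMIs. Mitochondrial transcripts were 0.990% of precursor UMIs in the knockout library and 2.58% in the WT library. The libraries shared 8 barcodes, 1 of them among the precursors. Levels are given as CPM, the UMIs of a gene summed over a set of nuclei and scaled to a total of 1e+06 UMIs in every set, so deep nuclei weigh more. Gene lengths were not used, and levels are compared only within a gene.

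The rule sets the levels of its own genes, which are given as a description. TOP2A, which untangles DNA in dividing cells, stood at 417 CPM in knockout precursors and 262 CPM in WT precursors, with a UMI in 54 of 63 knockout and 86 of 120 WT nuclei. EZH2, the methyltransferase of Polycomb complex 2, stood at 383 CPM in knockout and 273 CPM in WT precursors, and MYBL1, a transcription factor of the Myb family, at 549 CPM in knockout and 412 CPM in WT precursors. Among the neuronal genes, THSD7B, which encodes a protein with thrombospondin repeats, had 1265 UMIs in knockout and 3561 in WT precursors. HES6, a basic helix-loop-helix repressor that favours neuronal fate, had a UMI in 43 knockout and 104 WT precursors. NEUROD1, a driver of neuronal differentiation, had a UMI in 11 knockout and 35 WT precursors, which was 17.5% of the knockout and 29.2% of the WT precursors. No precursor was admitted by NEUROD1 alone; HES6 alone admitted 10 knockout and 25 WT nuclei, THSD7B alone 11 knockout and 13 WT nuclei, and CERKL alone 3 knockout and 0 WT nuclei. At the limit of the rule, 12 knockout and 31 WT precursors had exactly 3 cycle genes, while 57 knockout and 134 WT nuclei met the other criteria with 2. CEP152 read 360 CPM just inside and 409 CPM just outside that limit in the knockout library, and 322 CPM just inside and 325 CPM just outside in the WT library. KIT read 524 CPM just inside and 155 CPM just outside in the knockout library, and 139 CPM just inside and 108 CPM just outside in the WT library. CEP152 was thus about level across the limit, and KIT was higher inside it in the knockout library, where 12 nuclei carry the value.

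Markers that the rule did not use give a mixed check of the globose basal label. KIT, the stem cell factor receptor, stood at 388 CPM (170 UMIs) in knockout precursors against 29.9 CPM in the other nuclei of that library, and at 217 CPM (235 UMIs) in WT precursors against 38.5 CPM in the other WT nuclei. Other cycling nuclei, which divide but lack the 4 neuronal genes, had 118 CPM of KIT in the knockout and 207 CPM in the WT library, so in WT the KIT level did not set precursors apart from them. EYA2 stood at 1502 CPM in knockout precursors and 754 CPM in the other knockout nuclei, and at 1969 CPM in WT precursors and 812 CPM in the other WT nuclei. It was nearer to precursors in TP63 basal nuclei, at 995 CPM in the knockout and 1252 CPM in the WT library. Immature neurons had 953 CPM of EYA2 in the knockout and 1268 CPM in the WT library. CEP152 read 832 CPM (749 to 922) in knockout precursors and 85.8 CPM in the other knockout nuclei, and 698 CPM (649 to 749) in WT precursors and 137 CPM in the other WT nuclei. SOX2, a factor of early progenitors and support cells, read 27.4 CPM in knockout precursors and 26.6 CPM in the other knockout nuclei, and 60.9 CPM in WT precursors and 24.2 CPM in the other WT nuclei. NEUROG1 had 0 UMIs in knockout and 3 in WT precursors, with 3 in the other knockout and 5 in the other WT nuclei. INSM1 had 1 UMI in knockout and 3 in WT precursors, with 7 in the other knockout and 27 in the other WT nuclei. Both genes were too scarce in either library to check the label. The nuclei are therefore called cycling neuronal precursors here, and no globose basal name is drawn from NEUROG1 or INSM1.

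Precursors took a smaller share of the CFTR knockout library. They were 63 of 4705 nuclei with 1000 or more UMIs, or 1.34% (Clopper-Pearson interval 1.03 to 1.71), in the knockout library and 120 of 4329, or 2.77% (2.30 to 3.31), in the WT library, a log2 ratio of -1.05 (-1.49 to -0.61). Because the rule asks for UMIs of several genes, deeper nuclei pass more often, and the WT library was deeper. After every nucleus was thinned at random to 1000 UMIs, the share averaged 0.379% in the knockout and 0.732% in the WT library over 20 draws, from a mean of 17.85 knockout and 31.7 WT nuclei. The log2 ratio of the thinned shares was -0.95 (-1.78 to -0.11), ranged from -1.57 to -0.49 between draws, and was below 0 in 20 of 20 draws. The share was lower in the knockout library in each class of depth. From 1000 to under 2000 UMIs it was 0.134% (2 of 1491) in the knockout and 0.344% (3 of 873) in the WT library, and from 2000 to under 4000 UMIs 0.716% in the knockout and 1.37% in the WT library. From 4000 to under 8000 UMIs it was 3.14% in the knockout and 3.89% in the WT library, and from 8000 UMIs 7.89% in the knockout and 12.2% in the WT library. The counting interval of the ratio left out 1 only in the class from 2000 to under 4000 UMIs, where the log2 ratio was -0.93 (-1.84 to -0.02).

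**Figure D1:**
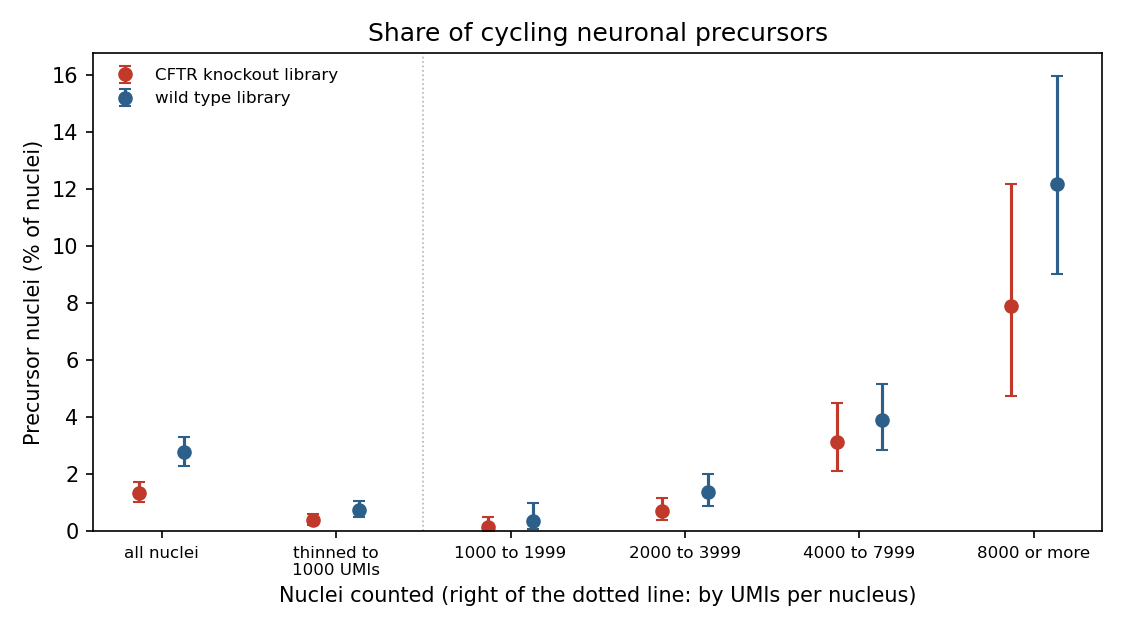
Precursor nuclei as a percentage of the nuclei counted (y axis) over all nuclei with 1000 or more UMIs, after thinning to 1000 UMIs (mean of 20 draws) and by classes of UMIs per nucleus (x axis), for the CFTR knockout library (red) and the WT library (blue). Points are shares and bars are 95% Clopper-Pearson intervals (for the thinned share, of its rounded mean count); the knockout point lies below the wild type point in every class, with overlapping intervals in the 4 depth classes.

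The share also depends on what else was dissected, so it was taken within narrower denominators. Among precursors, immature neurons and mature neurons together, precursors were 1.98% in the knockout and 3.42% in the WT library, a log2 ratio of -0.79 (-1.23 to -0.36). After thinning, the log2 ratio was -0.61 and its interval (-1.44 to 0.23) held 0. Dividing nuclei without any of the 4 neuronal genes, called other cycling nuclei below, numbered 42 in the knockout and 49 in the WT library, or 0.893% (0.644 to 1.20) of knockout and 1.13% (0.839 to 1.49) of WT nuclei with 1000 or more UMIs. Precursors made up 60% (50.0 to 69.4) of all cycling nuclei in the knockout library and 71.0% (63.5 to 77.7) in the WT library. After thinning that proportion was 32.3% in the knockout library and 45.3% in the WT library. These values are from 1 animal each, and the part of the difference that comes from dissection was not tested.

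Outside the genes of the rule, the genes that set precursors most apart from the other nuclei belonged to mitosis and replication. KIF18B, a kinesin that trims microtubules at the spindle, was 43.6-fold higher in knockout precursors than in the other knockout nuclei and 31.4-fold higher in WT precursors than in the other WT nuclei. NCAPG, a condensin subunit that compacts chromosomes, was 22.6-fold higher in the knockout and 16.8-fold higher in the WT library, and CENPE, a kinetochore kinesin, was 27.5-fold higher in the knockout and 14.9-fold higher in the WT library. The other 17 of the 20 genes with the highest ratios were DEPDC1B, SGO2, HMMR, PRR11, KIF4A, DLGAP5, TTK, CIT, CDK1, TICRR, DNA2, ANLN, TPX2, KIF14, ZGRF1, KIF18A and KNTC1, with ratios from 9.81 to 33.1. Since nuclei were chosen by cycle genes, these ratios describe the choice. All 20 were higher in the other cycling nuclei described above than in precursors, except TICRR and KNTC1 in the knockout library, where they were about even. CDK1, the kinase that starts mitosis, read 134 CPM in precursors and 329 CPM in other cycling nuclei of the knockout library, and 91.3 CPM and 181 CPM in those of the WT library. Of 51 G2/M genes with 50 or more UMIs, 0 were at least 2-fold higher in precursors than in other cycling nuclei in both libraries and 2, NUF2 and PBK, were at least 2-fold lower, where 7.09% of all 6329 genes were higher and 1.3% lower. None of 24 S phase genes passed that fold in either direction.

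What set precursors apart from other cycling nuclei was a group of neuronal genes. Of 31 listed neurogenic factors, 17 had 50 or more UMIs over the precursors of both libraries. Of these 17, 9 were at least 2-fold higher in precursors in both libraries and 0 were lower. Over all genes 7.09% were higher and 1.3% lower. The 9 were EBF2, EBF3, EBF4, LHX2, ELAVL2, ELAVL4, MYT1L, ST18 and BCL11B. The limit of 50 UMIs leaves out genes that are scarce in precursors. Counts against every comparison set therefore lean to genes higher in precursors, as do the shares of all genes. EBF2, a helix-loop-helix factor of olfactory neurons, read 1165 CPM in precursors and 73.7 CPM in other cycling nuclei of the knockout library, and 1238 CPM and 41.4 CPM in those of the WT library. LHX2, a homeodomain factor needed for olfactory neurons in the mouse, read 217 CPM in precursors and 14.7 CPM in other cycling nuclei of the knockout library, and 233 CPM and 15.0 CPM in those of the WT library. ELAVL4, a neuronal RNA-binding protein, read 511 CPM in precursors and 49.1 CPM in other cycling nuclei of the knockout library, and 524 CPM and 33.8 CPM in those of the WT library. Of 21 immature neuron genes, 10 were at least 2-fold higher than in other cycling nuclei in both libraries, among them GAP43, DCX, STMN2 and NCAM1. Other cycling nuclei were defined as lacking NEUROD1, HES6, THSD7B and CERKL, so a neuronal difference is partly built into the pair.

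Against mature neurons, defined by 4 or more genes of a mature neuron list, precursors were higher in the machinery of division. Of the 51 G2/M genes 45 were at least 2-fold higher in both libraries, as were 16 of 24 S phase genes and 19 of 28 DNA repair genes, where 8.25% of all genes were higher and 3.74% lower. Among cyclins and their partners 5 of 11 were higher, CCND1, CDK6, RBL1, E2F3 and LIN9. CDK6, a kinase of G1, read 285 CPM in precursors and 49.3 CPM in mature neurons of the knockout library, and 386 CPM and 71.2 CPM in those of the WT library. Neurogenic factors divided: EYA2, SOX4 and ST18 were at least 2-fold higher in precursors than in mature neurons, and EBF3, EBF4 and MYT1L at least 2-fold lower. EBF3 read 176 CPM in precursors and 449 CPM in mature neurons of the knockout library, and 228 CPM and 514 CPM in those of the WT library. The early progenitor genes KIT, PAX6, EYA1 and LGR5, 4 of 7 with enough UMIs, were at least 2-fold higher in precursors. Against other cycling nuclei 0 of the 7 were at least 2-fold higher in both libraries, with a median log2 ratio of -0.52 in the knockout and -0.15 in the WT library.

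ST18 and MFNG read higher in precursors than in each comparison set of both libraries. ST18, a zinc finger protein of the MYT1 family, read 185 CPM in knockout precursors and 137 CPM in WT precursors, against 5.09 to 31.2 CPM in the knockout and 9.34 to 37.6 CPM in WT comparison sets. A UMI of ST18 was found in 31 of 63 knockout and 53 of 120 WT precursors, and in 2 of 111 knockout and 5 of 127 WT nuclei of the glia list, a set that should lack it. MFNG, a fringe enzyme that adds sugars to Notch receptors, read 34.2 CPM (15 UMIs) in knockout and 37.8 CPM (41 UMIs) in WT precursors and had 0 UMIs in the other cycling nuclei and the glia list nuclei of both libraries. It also had a UMI in 13 mature neurons and 1 TP63 basal nucleus of each library. In 1 draw of 1000 UMIs per nucleus, MFNG was kept in 3 of 63 knockout and 5 of 120 WT precursors, shares that lie within what 0 counts in the other cycling nuclei allow (up to 8.41% in the knockout and 7.25% in the WT library). Of 25 listed Notch genes, 10 had 50 or more UMIs in precursors. Among these 10, MFNG and NUMBL, a relative of the Notch inhibitor NUMB, were at least 2-fold higher in precursors than in other cycling nuclei. NOTCH2 was at least 2-fold lower, where 7.09% of all genes were higher and 1.3% lower. The ratio of MFNG rests on a level of 0 set to 3 UMIs in other cycling nuclei. NOTCH2, a receptor, read 130 CPM in precursors and 393 CPM in other cycling nuclei of the knockout library, and 145 CPM and 361 CPM in those of the WT library. In TP63 basal nuclei it read 312 CPM in the knockout and 306 CPM in the WT library. Single genes in this paragraph were picked out after their values were seen.

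**Figure D2:**
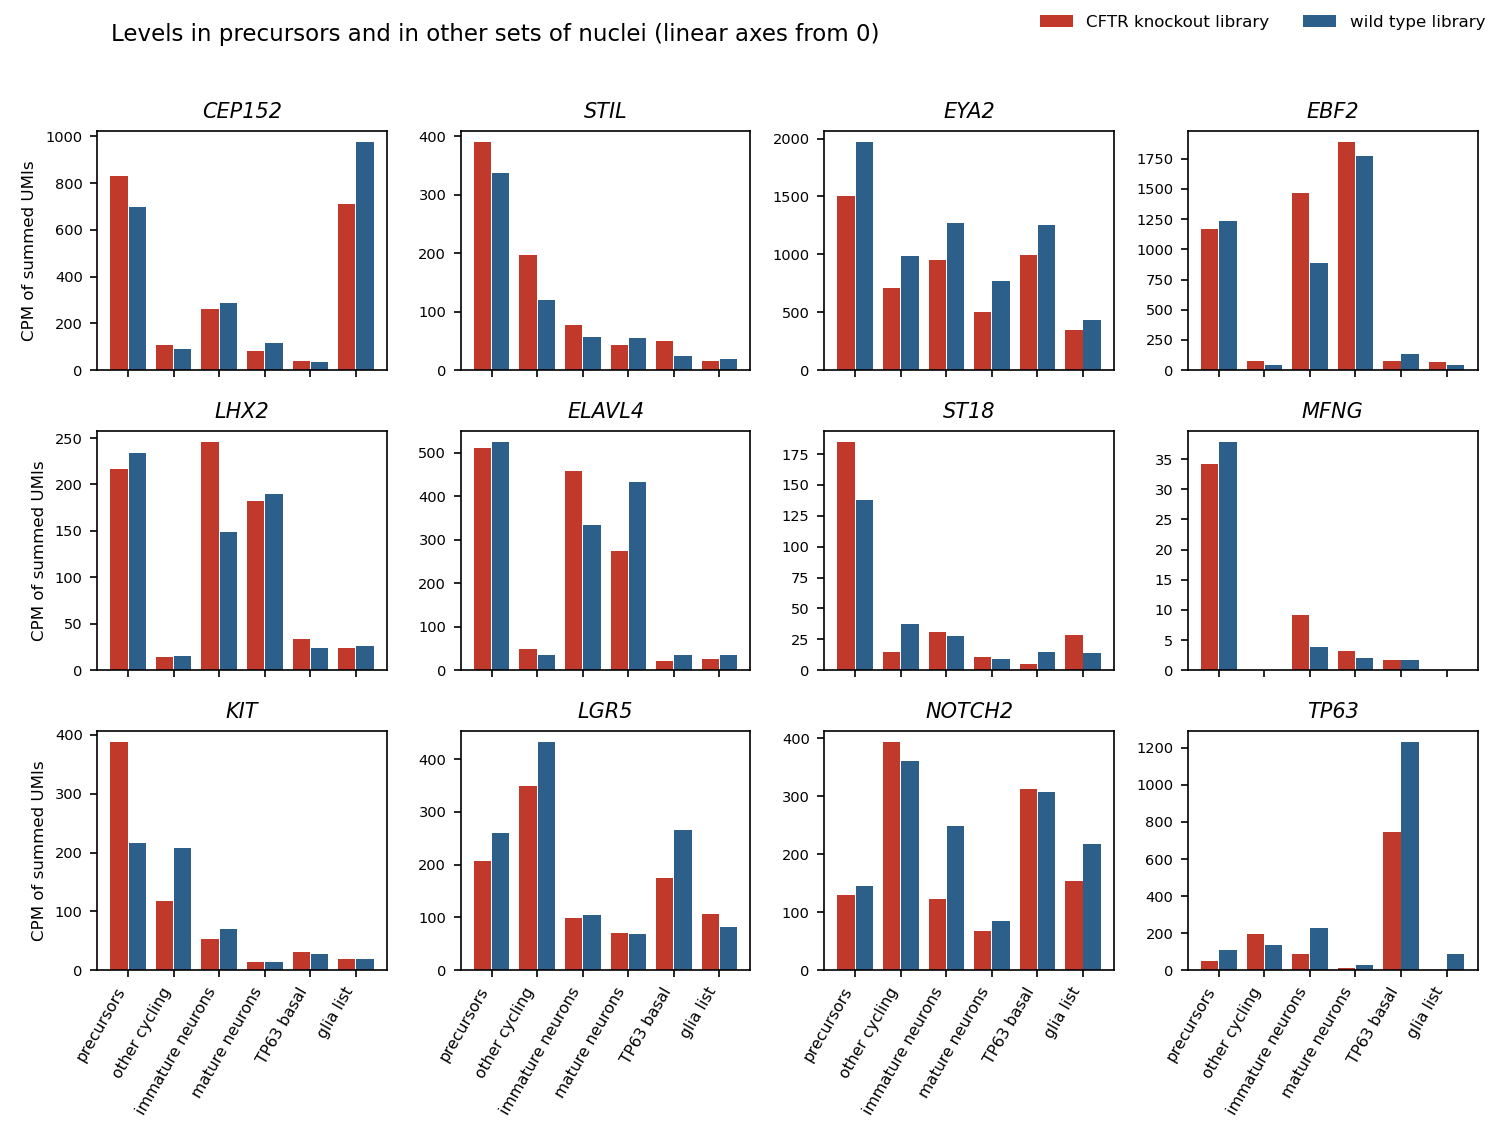
CPM of summed UMIs (y axes, linear from 0) of 12 genes in precursors and in 5 comparison sets of nuclei (x axis) in the CFTR knockout library (red) and the WT library (blue), 1 bar for each set and library. CEP152 is high in precursors and in nuclei of the glia list, STIL, ST18 and MFNG are highest in precursors, KIT is highest in knockout precursors and about as high in WT precursors as in WT other cycling nuclei, EBF2, LHX2 and ELAVL4 are shared with neurons, and NOTCH2 and LGR5 are highest in other cycling nuclei.

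Centriole genes read higher in precursors than in nuclei that do not divide, and little different from other cycling nuclei. The sets taken not to divide were limited to fewer than 3 cycle genes, so this difference may be partly built in. Of 27 centriole genes with 50 or more UMIs, 10 were at least 2-fold higher in precursors than in mature neurons in both libraries, 10 than in immature neurons, where 4.12% of all genes were higher and 0.964% lower, and 13 than in TP63 basal nuclei, where 11.7% were higher and 3.13% lower. Against nuclei of the glia list 10 were higher, where 13.4% of all genes were higher and 4.65% lower, and CEP152 was not among the 10. Only CEP152, CCP110 and E2F5 were at least 2-fold higher than in other cycling nuclei, 3 of 27 or 11.1%, which is near the 7.09% of all genes, and the median log2 ratio was 0.31 in the knockout and 0.07 in the WT library. CEP152, a scaffold that recruits the kinase PLK4 to a new centriole, read 832 CPM in precursors, 108 CPM in other cycling nuclei, 261 CPM in immature neurons and 39.1 CPM in TP63 basal nuclei of the knockout library. In WT nuclei it read 698 CPM in precursors, 90.3 CPM in other cycling nuclei, 287 CPM in immature neurons and 33.9 CPM in TP63 basal nuclei. CEP152 is thus higher in neuronal precursors than in other dividing nuclei, but it does not mark them alone, since nuclei of the glia list had 711 CPM in the knockout and 975 CPM in the WT library. STIL, a partner of CEP152 in starting a centriole, read 390 CPM in precursors, 196 CPM in other cycling nuclei and 15.7 CPM in glia list nuclei of the knockout library, and 338 CPM, 120 CPM and 18.7 CPM in those of the WT library. CCP110, a cap of the centriole that must come off before a cilium grows, read 267 CPM in precursors and 54.0 CPM in other cycling nuclei of the knockout library, and 218 CPM and 94.0 CPM in those of the WT library. SASS6, the protein of the centriole cartwheel, read 187 CPM in precursors and 251 CPM in other cycling nuclei of the knockout library, and 120 CPM and 158 CPM in those of the WT library.

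Precursors were not uniform in KIT. A KIT UMI was found in 28 of 63 knockout precursors (44.4%, 31.9 to 57.5) and in 54 of 120 WT precursors (45%, 35.9 to 54.3). In nuclei of the glia list the share was 1 of 111 in the knockout and 4 of 127 in the WT library. After thinning to 1000 UMIs, 23.8% of knockout and 20.4% of WT precursors kept a KIT UMI, as means of 20 draws. Nuclei with KIT had a median of 5917.5 UMIs in the knockout and 5885.5 in the WT library, and those without had 4726 in the knockout and 6083 in the WT library. The split by KIT was chosen after its values were seen.

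Precursors with KIT were higher in a few other genes, among them LGR5, the 1 of 6 early progenitor genes that was at least 2-fold higher with KIT in both libraries. LGR5, a receptor for R-spondins that strengthens Wnt signalling, read 299 CPM with KIT and 103 CPM without it in the knockout library, and 391 CPM and 150 CPM in the WT library. EYA1, a phosphatase and transcriptional coactivator, read 2446 CPM with KIT and 1467 CPM without it in the knockout library, and 2787 CPM and 1689 CPM in the WT library. DKK2, a secreted Wnt modulator, read 59.8 CPM with KIT and 9.78 CPM without it in the knockout library, and 173 CPM and 18.6 CPM in the WT library. MYBL1, itself a gene of the rule, was 1.46-fold (1.12 to 1.92) higher with KIT in the knockout and 2.08-fold (1.71 to 2.53) higher in the WT library. LGR5, EYA1 and MYBL1 were also higher with KIT in both libraries among precursors of at most 8000 UMIs, while DKK2 was not recomputed there.

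Precursors without KIT were higher in some neuronal genes and in CEP152 and STIL. Of 17 neurogenic factors 4, LHX2, ELAVL2, ELAVL4 and BCL11B, were at least 2-fold lower with KIT in both libraries, as was 1 of 21 immature neuron genes, DPYSL2. None of 27 centriole genes passed that fold in both libraries, and SASS6 was higher (interval of the ratio 1.04 to 2.15) with KIT in WT. THSD7B, a gene of the rule whose level the choice of nuclei bears on, read 1149 CPM with KIT and 4871 CPM without it in the knockout library, and 1607 CPM and 4680 CPM in the WT library. CEP152 read 367 CPM with KIT and 1364 CPM without it in the knockout library, and 500 CPM and 861 CPM in the WT library. Among precursors of at most 8000 UMIs the CEP152 ratio in the knockout library was 0.48, against 0.27 over all precursors. LHX2 read 81.1 CPM with KIT and 372 CPM without it in the knockout library, and 104 CPM and 341 CPM in the WT library. EYA2, ELAVL4, EBF2, BCL11B and STIL were lower with KIT in both libraries too, and each counting interval of their ratios left out 1. Such intervals take every UMI as independent and leave out the spread between nuclei. TP63, the horizontal basal factor, read 4.27 CPM with KIT and 108 CPM without it in the knockout library, and 18.3 CPM and 184 CPM in the WT library, so the nuclei without KIT also hold most of the TP63 UMIs. At a limit of 8000 UMIs the TP63 level was 0 with KIT in both libraries, and 140 CPM in the knockout and 21.9 CPM in WT without it. Of 3938 genes with enough UMIs, 38 (0.965%) were at least 2-fold higher with KIT in both libraries and 35 (0.889%) at least 2-fold lower.

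Precursors with a NEUROD1 UMI were higher in CEP152, STIL and LHX2 and in some, but not all, other genes of the same kinds. EYA2, ELAVL4, EBF2, BCL11B, ST18 and CCP110 were also higher in both libraries, and each counting interval of their ratios left out 1. Here too the intervals leave out the spread between nuclei. BCL11A was lower with NEUROD1 in both libraries. SASS6 was 1.05-fold (0.58 to 1.82) higher with NEUROD1 in the knockout and 1.30-fold (0.88 to 1.90) higher in the WT library, and GAP43 with NEUROD1 was at a ratio of 1.17 (0.69 to 1.89) to that without it in the knockout and 0.95 (0.72 to 1.26) in the WT library. Precursors with a NEUROD1 UMI numbered 11 in the knockout and 35 in the WT library, and 52 knockout and 85 WT precursors had none. CEP152 was 3.21-fold (2.60 to 3.97) higher with NEUROD1 in the knockout and 2.71-fold (2.34 to 3.13) higher in the WT library, and STIL was 3.14-fold (2.29 to 4.30) higher in the knockout and 2.12-fold (1.71 to 2.62) higher in the WT library. In WT precursors of at most 8000 UMIs the ratios were smaller, 1.33 (1.00 to 1.77) for STIL and 1.82 (1.49 to 2.21) for CEP152. ST18, at 1.46 (1.02 to 2.06) over all WT precursors, was at 0.98 (0.58 to 1.61) there, so its WT difference was not kept. LHX2 was 3.47-fold (2.27 to 5.30) higher in the knockout and 2.31-fold (1.79 to 2.97) higher in the WT library. HES6, a gene of the rule, was 2.29-fold higher in the knockout and 2.28-fold higher in the WT library. KIT read 34.4 CPM with NEUROD1 and 475 CPM without it in the knockout library, and 148 CPM and 243 CPM in the WT library. LGR5 read 22.9 CPM with NEUROD1 and 253 CPM without it in the knockout library, and 195 CPM and 284 CPM in the WT library. In both libraries KIT and LGR5 were lower and CEP152 higher with NEUROD1, and 11 nuclei carry the knockout values. Both splits use the same nuclei and are not independent of each other.

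**Figure D3:**
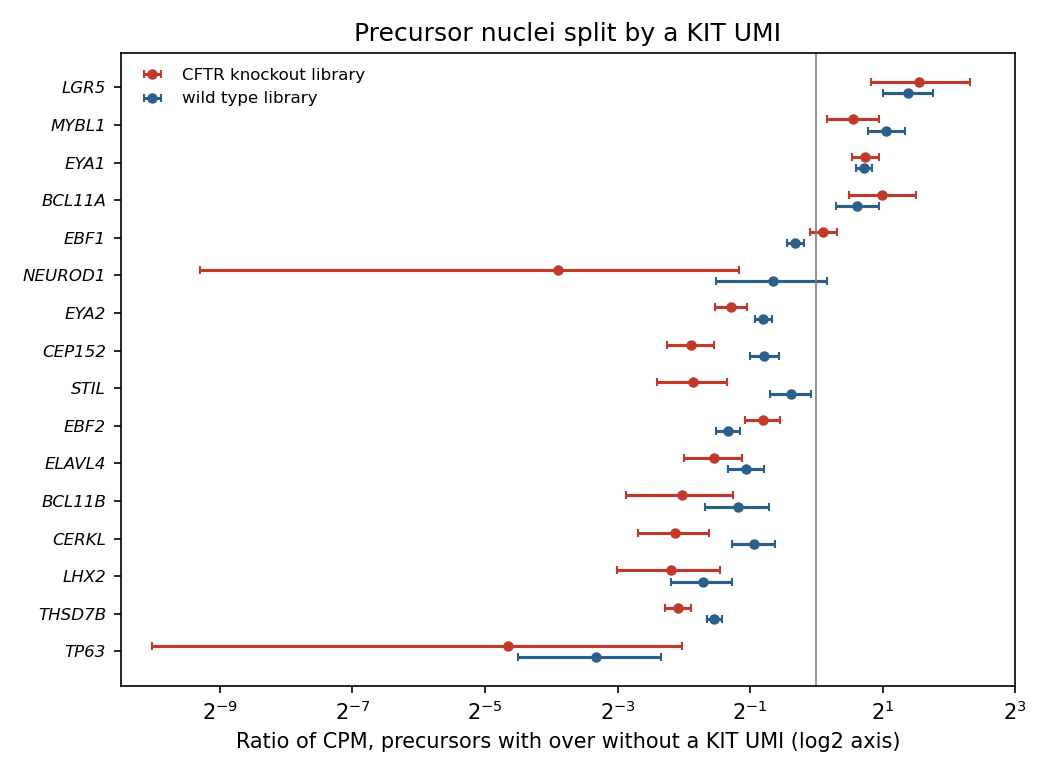
Ratio of CPM in precursors with over those without a KIT UMI (x axis, log2 scale) for 16 genes (y axis) in the CFTR knockout library (red) and the WT library (blue). Points are ratios and bars their 95% counting intervals; LGR5, MYBL1, EYA1 and BCL11A lie above 1 in both libraries, and EYA2, CEP152, STIL, EBF2, ELAVL4, BCL11B, CERKL, LHX2, THSD7B and TP63 below 1 in both.

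Most precursors carried more transcripts of G2 and mitosis than of S phase. With nuclei thinned to 1000 UMIs and the rule genes left out, G2/M UMIs exceeded S phase UMIs in 71.7% of knockout and 67.8% of WT precursors, as means of 20 draws that ranged from 66.7% to 77.8% in the knockout and from 63.3% to 70.8% in the WT library. S phase UMIs were more numerous in 22.3% of knockout and 22.0% of WT precursors. The ranges of the draws overlapped, but they measure the thinning only. Without thinning the share with more G2/M UMIs was 73.0% in the knockout and 80.8% in the WT library. With 2 neurogenic genes required it was 83.6% in the knockout and 69.5% in the WT library. The side of the difference between libraries thus changed with the setting. The rule's cycle genes are mostly genes of G2 and mitosis, so nuclei in G1 or early S phase pass it less often. In 1 draw precursors held a mean of 3.65 S phase and 8.73 G2/M UMIs per 1000 UMIs in the knockout library and 3.47 and 7.23 in the WT library. Mature neurons, a type that does not divide, held 0.837 and 1.22 in the knockout library and 0.792 and 1.16 in the WT library, and other cycling nuclei held 4.10 and 14.7 in the knockout library and 5.45 and 11.7 in the WT library. Mature neurons were limited to fewer than 3 cycle genes. In that draw 4 or more UMIs of these lists were in 88.9% of knockout and 80.8% of WT precursors. The share was 15.5% in knockout and 14.5% in WT mature neurons. Not thinned, G2/M genes read 1340 CPM in the deepest WT precursor (50007 UMIs) and 796 CPM in another of 25127 UMIs. WT mature neurons read 1144 CPM, so some deep precursors lay near or below them.

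Nuclei with more S phase than G2/M transcripts were found more often among precursors with KIT. Without thinning they were 12 of 28 nuclei with KIT (42.9%, 24.5 to 62.8) and 5 of 35 without it (14.3%, 4.81 to 30.3) in the knockout library, and 13 of 54 (24.1%, 13.5 to 37.6) and 5 of 66 (7.58%, 2.51 to 16.8) in the WT library. After thinning the shares were 34.8% with KIT and 12.4% without it in the knockout library and 24.8% and 17.5% in the WT library, as means of 20 draws. In the WT library the draws without KIT ranged from 9.09% to 27.3%, which takes in the mean with KIT. The share reads the balance of the lists, which moved differently in the libraries. In the knockout library S phase UMIs were 3.31 per 1000 with KIT and 2.91 without it, and G2/M UMIs 6.81 with KIT and 9.64 without it. In the WT library S phase UMIs were 3.11 per 1000 with KIT and 2.05 without it, and G2/M UMIs 6.08 with KIT and 5.10 without it. The G2/M level was thus lower with KIT in the knockout library and higher with KIT in the WT library.

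**Figure D4:**
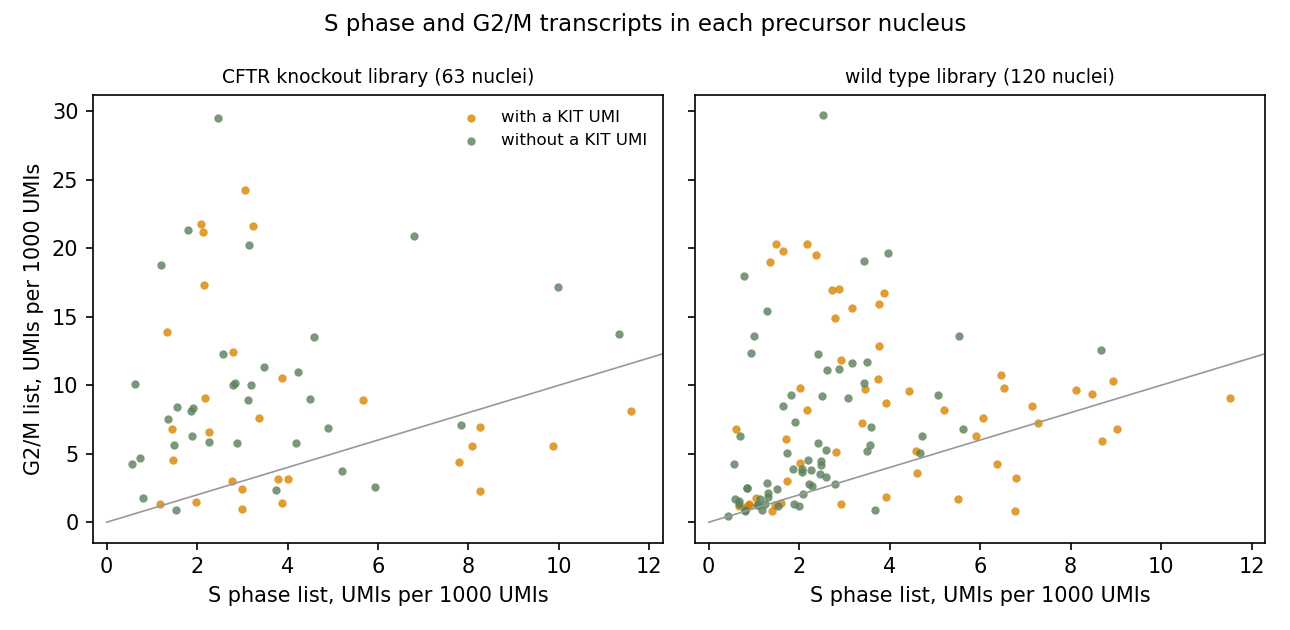
UMIs of the S phase list (x axis) and of the G2/M list (y axis) per 1000 UMIs in each precursor nucleus, in the CFTR knockout library (left) and the WT library (right), not thinned. Each point is 1 nucleus, orange with and green without a KIT UMI, and the line marks equal values; most nuclei lie above the line, and 12 of the 17 knockout and 13 of the 18 WT nuclei below it have a KIT UMI.

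Between the genotypes, cycle genes read higher and mitochondrial transcripts lower in knockout precursors. Of 6329 genes with 50 or more UMIs, 105 (1.66%) had at least 2-fold higher CPM in knockout precursors and 208 (3.29%) at least 2-fold lower, and the median log2 ratio of knockout over WT was 0.05. Over all these genes 3466 (54.8%) had a ratio above 1 and 2863 below 1. Among 51 G2/M genes 49 had a ratio above 1, with a median log2 ratio of 0.54, but 1 of 51, NCAPD3, passed 2-fold. NCAPD3, a condensin subunit, read 119 CPM in knockout and 54.4 CPM in WT precursors, a log2 ratio of 1.12 (0.56 to 1.69). NUSAP1, a spindle protein, read 403 CPM in knockout and 248 CPM in WT precursors, a log2 ratio of 0.70 (0.42 to 0.98). Among 24 S phase genes 17 were above 1, with a median of 0.41, and TICRR and UHRF1 passed 2-fold. TICRR, which starts replication origins, read 123 CPM in knockout and 56.3 CPM in WT precursors. Its log2 ratio was 1.13 (0.57 to 1.68). UHRF1, which guides maintenance of DNA methylation, read 82.1 CPM in knockout and 39.7 CPM in WT precursors.

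The rule bears on these cycle levels, because 3 cycle genes have to be seen at any depth and a shallow nucleus passes only if it is rich in them. Among precursors of at most 8000 UMIs, 45 in the knockout and 75 in the WT library, the median log2 ratio was 0.29 for G2/M genes and 0.23 for S phase genes, against 0.05 for all genes. The median of the rule's own cycle genes was 0.50 over all precursors and 0.27 in those of at most 8000 UMIs. In other cycling nuclei the summed level of the 10 cycle genes of the rule was 4332 CPM in the knockout and 3404 CPM in the WT library, and in precursors 2859 CPM in the knockout and 2029 CPM in the WT library. The part that depth has in the difference was not tested.

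Centriole and DNA repair genes shifted less, and lay at the median of all genes once the deepest nuclei were left out. The median log2 ratio of 27 centriole genes was 0.26 over all precursors and 0.04 at most 8000 UMIs, and that of 28 DNA repair genes was 0.22 and 0.03. CEP152 had a log2 ratio of 0.25 (0.07 to 0.44) over all precursors, and -0.18 at most 8000 UMIs. RAD51B, a recombination protein, read 686 CPM in knockout and 848 CPM in WT precursors, a log2 ratio of -0.31 (-0.50 to -0.12). Chromatin genes had a median of 0.15 over 17 genes, and JARID2, a Polycomb partner, read 260 CPM in knockout and 356 CPM in WT precursors. Among 11 cyclins and their partners the median was 0.00; RBL2, a relative of the retinoblastoma protein, read 116 CPM in knockout and 58.1 CPM in WT precursors, and BTG1, which restrains proliferation, 22.8 CPM in knockout and 48.9 CPM in WT precursors. The log2 ratio of BTG1 was -1.10 (-2.24 to -0.11).

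Neurogenic and early progenitor genes had medians near or below 0 that depended on the setting. The median of neurogenic factors was 0.02 with the highest doublet scores removed and 0.04 with 2 neurogenic genes required, and that of early progenitor genes, -0.32 over all precursors, was 0.00696 with nuclei weighted equally. Of 17 neurogenic factors 11 were below 1, with a median log2 ratio of -0.09, and only SOX4 passed 2-fold. Over all 6329 genes 2863 were below 1, which is the background for this and the next 2 lists. SOX4 read 27.4 CPM (12 UMIs) in knockout and 70.1 CPM (76 UMIs) in WT precursors, a log2 ratio of -1.36 (-2.37 to -0.47). EYA2 read 1502 CPM in knockout and 1969 CPM in WT precursors, a log2 ratio of -0.39 (-0.52 to -0.26). EBF1 and EBF2 were close to even, at log2 ratios of -0.06 (-0.18 to 0.06) and -0.09 (-0.24 to 0.06). Of 7 early progenitor genes 6 were below 1, with SOX2 at -1.15 (-2.18 to -0.25) and ETV5 at -1.11 (-2.32 to -0.07), while KIT was above 1 at 0.84 (0.54 to 1.13). With every nucleus given the same weight, KIT was at 0.46. EYA1 was at -0.14 over all precursors, 0.26 with nuclei weighted equally and 0.52 at most 8000 UMIs. Of 21 immature neuron genes 15 were below 1, with a median log2 ratio of -0.16. That median was -0.39 with nuclei weighted equally, -0.62 at most 8000 UMIs and 0.04 with 2 neurogenic genes required. PURG, a gene of nascent neurons, read 125 CPM in knockout and 537 CPM in WT precursors, a log2 ratio of -2.10 (-2.52 to -1.70), but its ratio was -0.31 at most 8000 UMIs. Among 10 Notch genes the median was -0.15; HEY2, a Notch target, read 38.8 CPM in knockout and 67.4 CPM in WT precursors, and NUMBL 72.9 CPM in knockout and 38.8 CPM in WT precursors.

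**Figure D5:**
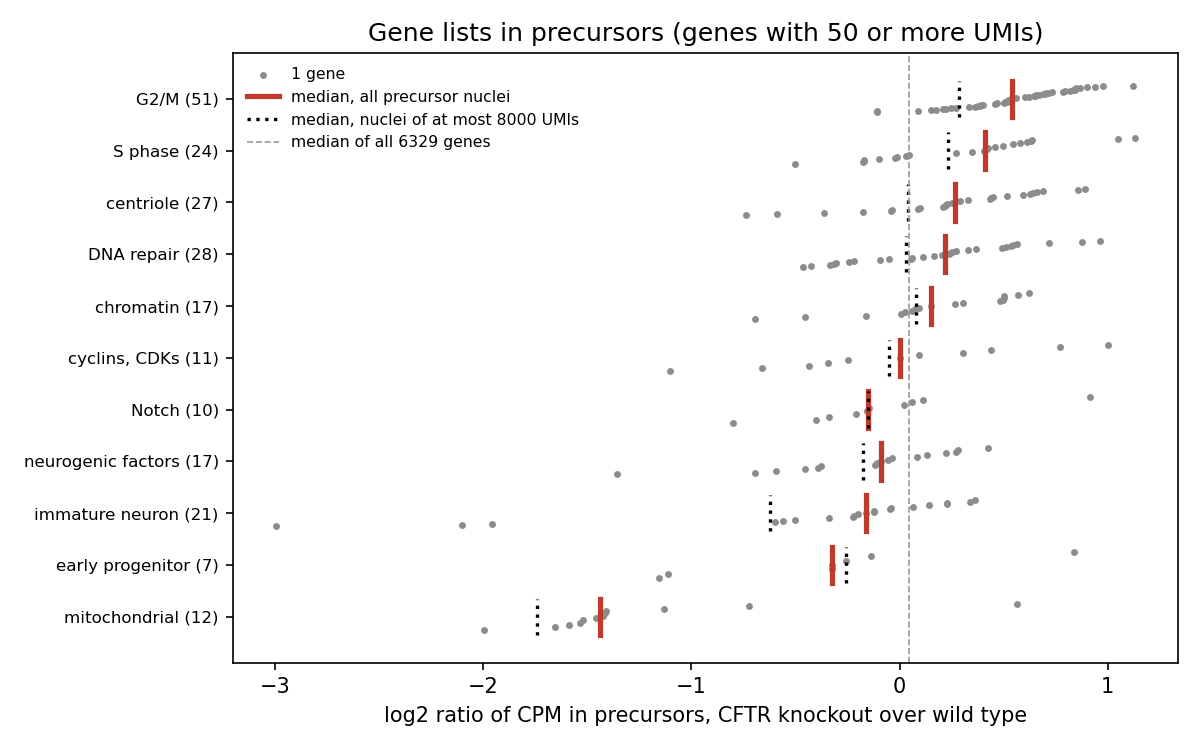
Log2 ratio of CPM in precursors, CFTR knockout over WT (x axis), of the genes of 11 lists (y axis, with the number of genes that had 50 or more UMIs). Each grey point is 1 gene, red bars are medians over all precursors, dotted bars medians over precursors of at most 8000 UMIs, and the dashed line is the median of all 6329 genes; G2/M and S phase genes lie to the right of it and mitochondrial genes to the left.

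Of 12 mitochondrial transcripts 10 were at least 2-fold lower in knockout precursors, with a median log2 ratio of -1.44. COX3, a subunit of cytochrome oxidase, read 2184 CPM in knockout and 5854 CPM in WT precursors. The rest of the libraries showed the same side of the difference, with 1.23% of UMIs mitochondrial in the other knockout nuclei and 2.73% in the other WT nuclei. In isolated nuclei these transcripts come from outside the nucleus, and how far the preparation set them was not tested.

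CFTR itself was nearly absent from knockout precursors. It had 2 UMIs in 2 of 63 nuclei (4.56 CPM) in the knockout and 80 UMIs in 22 of 120 nuclei (73.8 CPM) in the WT library, a log2 ratio of -4.02 (-7.09 to -2.12). Among precursors of at most 8000 UMIs it had 1 UMI in the knockout and 8 in the WT library. WT precursors did not stand out for CFTR: 18.3% of them had a UMI, against 26.5% of other cycling nuclei, 27.5% of TP63 basal nuclei, 6.92% of mature neurons and 9.45% of glia list nuclei. The median depth was 5977.5 UMIs in these precursors, 2633 in glia list nuclei and 3892 in mature neurons. By level, WT mature neurons read 47.0 CPM, below the 73.8 CPM (58.5 to 91.9) of precursors. The other WT sets read higher, with 124 CPM in immature neurons, 128 CPM in other cycling nuclei and 184 CPM in TP63 basal nuclei. WT glia list nuclei read 226 CPM, from 97 UMIs in 12 of 127 nuclei. Of the comparison sets only mature neurons thus lay below the precursors by level. How far stray transcripts set the CFTR level in WT precursors was not tested. Of other anion transport genes, SLC12A2, the basolateral chloride importer, read 262 CPM in knockout and 173 CPM in WT precursors, a log2 ratio of 0.60 (0.26 to 0.95), and ANO1, a calcium-activated chloride channel, read 54.7 CPM in knockout and 24.9 CPM in WT precursors.

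The genes with the highest ratios of knockout over WT were TRPC4, BPIFA1, PADI1, FAM19A5, SYTL3, CETN2, RORA, TFF3, DGKI and PDE6A, with log2 ratios from 1.89 to 3.17. TRPC4, a cation channel, had 69 UMIs in knockout precursors and 19 in WT precursors, but 62 of the 69 came from 1 nucleus. BPIFA1, an airway secretory protein, read 280 CPM in knockout and 36.0 CPM in WT precursors, and in mature neurons, a type that should lack it, 426 CPM in the knockout and 33.0 CPM in the WT library. Its UMIs were in 66.7% of precursors and 70.9% of mature neurons of the knockout library, at median depths of 5268 and 3082 UMIs. BPIFA1 was thus not particular to precursors, and how far stray transcripts set its level was not tested. In WT precursors 35 of the 39 UMIs came from 1 nucleus, and the log2 ratio, 2.96 over all precursors, was 5.96 with 2 neurogenic genes required and 6.71 at most 8000 UMIs. TFF3, a secreted trefoil peptide, likewise read 160 CPM in knockout and 41.5 CPM in WT precursors, and 215 CPM in knockout and 50.9 CPM in WT mature neurons. CETN2, which encodes a centrin of centrioles and cilia, read 95.7 CPM in knockout and 24 CPM in WT precursors, and 99.6 CPM in knockout and 27.9 CPM in WT mature neurons, so it was not particular to precursors. FAM19A5, a secreted neural protein, read 123 CPM (54 UMIs in 28 nuclei) in knockout and 23.1 CPM (25 UMIs in 21 nuclei) in WT precursors, with 16.1 CPM in the other knockout and 17.9 CPM in the other WT nuclei. RORA, a nuclear receptor, read 132 CPM in knockout and 34.1 CPM in WT precursors, with 81.6 CPM in the other knockout and 55.2 CPM in the other WT nuclei.

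The genes with the lowest ratios were CFTR, BPIFB4, RGS5, CDH8, TEX15, SFRP2, ABI3BP, CYP2F1, RGS4 and CXCL14, with log2 ratios from -4.02 to -2.66. Several of these rest on 1 WT nucleus, which held 56 of 104 WT UMIs of BPIFB4, 65 of 117 of RGS5, 108 of 146 of ABI3BP and 55 of 94 of CXCL14. BPIFB4 and RGS5 had log2 ratios of 0.81 at most 8000 UMIs, from 3 or fewer UMIs in each library, which sets no direction. SFRP2, a secreted Wnt antagonist, was spread more widely, with 5 UMIs in 4 knockout nuclei and 96 UMIs in 30 WT nuclei, a log2 ratio of -2.96 (-4.61 to -1.69). Its ratio was -3.95 at most 8000 UMIs, and -1.08 (-1.21 to -0.94) in the other nuclei. CYP2F1, a cytochrome P450 of support cells, read 20.5 CPM in knockout and 140 CPM in WT precursors, and 49.2 CPM in the other knockout and 239 CPM in the other WT nuclei. CDH8, a neuronal cadherin, read 9.12 CPM in knockout and 79.4 CPM in WT precursors, and 32.9 CPM in the other knockout and 94.3 CPM in the other WT nuclei. TEX15 read 13.7 CPM in knockout and 109 CPM in WT precursors, and 31.2 CPM in the other knockout and 112 CPM in the other WT nuclei, so its difference was shared with the rest of the libraries. Among precursors of at most 8000 UMIs the log2 ratios were smaller, -0.78 for CYP2F1, -1.07 for CDH8 and -1.19 for TEX15.

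Transcripts of other cell types were present in precursors of both libraries, in some lists near or above the level of the other nuclei. Of 16 mature neuron markers 15 had a UMI in knockout and 16 in WT precursors. Their summed level was 1662 CPM in knockout and 1441 CPM in WT precursors, against 2598 CPM and 3597 CPM in the other nuclei. UMIs of 3 or more of these markers were in 63.5% of knockout and 60.8% of WT precursors. Of 14 sustentacular markers 12 had a UMI in knockout and 13 in WT precursors, with a summed level of 864 CPM in knockout and 1271 CPM in WT precursors and, per nucleus, from 0 to 3706 CPM in the knockout and from 0 to 5949 CPM in the WT library. Of 12 fibroblast markers 11 had a UMI in both libraries, with TWIST2 at 0, a summed level of 460 CPM in knockout and 670 CPM in WT precursors, and a range per nucleus from 0 to 3732 CPM in the knockout and from 0 to 7343 CPM in WT. Of 9 secretory markers 9 had a UMI in knockout and 8 in WT precursors, with a summed level of 967 CPM in knockout and 479 CPM in WT precursors. Horizontal basal markers summed to 581 CPM in knockout and 597 CPM in WT precursors, with KRT15 at 0 in both libraries, while they summed to 2601 CPM in knockout and 3278 CPM in WT TP63 basal nuclei. TP63 basal nuclei were chosen by genes of that list, so their higher sum follows from the choice. Of 12 glia markers, 10 had a UMI in knockout and 9 in WT precursors, FABP7 and FOXD3 were at 0 in both libraries, and the summed level was 308 CPM in knockout and 252 CPM in WT precursors, against 1504 CPM in knockout and 1929 CPM in WT nuclei of the glia list. The sums in other knockout nuclei were sustentacular 1172 CPM, fibroblast 1113 CPM, secretory 2033 CPM, horizontal basal 649 CPM and glia 220 CPM. In other WT nuclei they were sustentacular 1376 CPM, fibroblast 1254 CPM, secretory 529 CPM, horizontal basal 517 CPM and glia 274 CPM. The part of transcripts of other cell types in the differences between the genotypes was not tested.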

How the data were processed

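The deposited tables, 1 per genotype, hold raw UMI counts of every gene in every nucleus. Cell Ranger, Seurat 4.0 and R 4.0.2 are named in the submitters' processing notes. Build, annotation and whether introns were counted: not given in the sources used here. Each table lists 25880 genes, 8256 of them by identifier only, of which 1029 were given a symbol from a gene name table. The shallowest barcode had 500 UMIs. Groups follow the genotype label. The members and gene lists were chosen with earlier results of these data known.

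Analysis used Python 3.11.15, scipy 1.17.1 and numpy 2.4.6. UMIs were summed over precursors and scaled to CPM. Intervals were exact Poisson (levels), Clopper-Pearson (shares), conditional binomial (ratios of CPM) and log-normal (ratios of shares), all at 95%. Counts of genes past 2-fold, between genotypes and against other sets, needed 50 UMIs summed over the precursors of both libraries. A level of 0 was set to 3 UMIs in ratios. Doublets were kept; they were scored with Scrublet in scanpy 1.11.5, whose threshold called 1 nucleus per library and had not worked, and an alternative removed the highest scores at 0.8% per 1000 nuclei (293 knockout, 178 wild type nuclei, of which 6 and 12 precursors). TMM scaling used edgeR 4.0.16. The calculations were tested on simulated data.

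Named genes were those of the rule and marker list, the 10 highest and 10 lowest ratios of knockout over wild type with an interval that excludes 1, the 20 highest ratios of precursors over other nuclei, and in each list its 3 members with most UMIs or the 2 farthest from 0; others were chosen after their values were seen. Immature neurons (other than in the share of lineage nuclei), TP63 basal nuclei and glia list nuclei are narrower sets, without nuclei of 4 or more mature neuron genes, defined after the first versions proved to hold genes of other types. These sets and mature neurons held only nuclei with fewer than 3 cycle genes. One marker of the label is not reported here.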

Additional observations from a re-analysis of the deposited data

How the results depend on the processing

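Each genotype has 1 library, so no replicate could be left out, and no p-value stands behind any difference. No paired analysis was possible because there is 1 sample in each group. The lower share of precursors in the knockout library kept its direction under all 8 alternatives tried, with log2 ratios from -1.20 to -0.83, and its share of lineage nuclei under all 3, from -0.79 in the main calculation to -0.58 with the narrower immature set. The number of genes at least 2-fold higher in knockout precursors was 105 and became 162 with nuclei weighted equally, 310 with a minimum of 20 UMIs, 3120 with 1 UMI and 69 with 2 neurogenic genes required. The number at least 2-fold lower was 208 and became 592 with a minimum of 20 UMIs, 1291 with 1 UMI and 86 in nuclei of at most 8000 UMIs. TMM scaling moved every log2 ratio by -0.05. Of the 20 genes with extreme ratios, 2 turned at most 8000 UMIs, BPIFB4 and RGS5, both to 0.81. The median of early progenitor genes turned to 0.00696 with nuclei weighted equally. The share of precursors with more G2/M UMIs was 83.6% in the knockout library with 2 neurogenic genes required and 80.8% in the WT library without thinning. The log2 ratio of CEP152 in precursors over TP63 basal nuclei was 3.31 in the knockout and 3.30 in the WT library with the set as first defined, 3.70 in the knockout and 3.65 in WT with 2 neurogenic genes required, 4.41 in the knockout and 4.36 in WT with the narrower set, and 4.09 in the WT library at most 8000 UMIs. CEP152 with over without KIT had a log2 ratio of -1.89 in the knockout library, and -1.05 at most 8000 UMIs; with over without NEUROD1 it was 1.44 in the WT library, and 0.86 at most 8000 UMIs. The cause of these changes was not tested. Nuclei of at most 8000 UMIs, the narrower sets and the split by KIT were chosen after seeing the data.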
